A study of Homo sapiens with 6 samples.

Results

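The genes described here are 41 regulators of apoptosis and targets of the transcription factor p53, of 28675 genes in the deposited count table. They were chosen by name from a fixed list, written with earlier results of these data known. Each symbol matched 1 row of the table, and 40 of the 41 had enough reads to be tested. Of the 41, 22 act in apoptosis itself and 19 are known mainly as genes that p53 switches on. The libraries came from MDA-MB-231 cells, a line from a triple-negative breast cancer, which lacks the estrogen and progesterone receptors and amplified HER2. Per the labels, 3 libraries carried a no-load control genotype and 3 a LARP6 overexpression genotype. LARP6 belongs to the La-related proteins, which bind RNA. Both groups are the same cell line with no other treatment named, and the labels state neither the construct nor whether the cells were a clone or a pool. The study asked which RNAs LARP6 binds and regulates in these cells, including their splicing, and the tables address the RNA level of whole genes only.

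Apoptosis through mitochondria is controlled by the BCL2 family. BAX and BAK1 form pores in the outer mitochondrial membrane, survival proteins such as BCL2, BCL2L1 and MCL1 hold them in check, and BH3-only proteins relay stress signals by binding either side. Pores release cytochrome c, which assembles APAF1 and caspase-9 into the apoptosome, and inhibitor of apoptosis proteins restrain the caspases. The tumour suppressor p53 raises several of these genes together with cell cycle, metabolic and repair genes, and MDM2 closes the loop by degrading p53.

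Of the whole series, total counts ran from 29409101 to 33387050 per library. LARP6 matched the labels in each library, at 44.2, 40.7 and 43.3 CPM (counts scaled to a common library size) in the controls against 1995, 2198 and 2131 CPM with LARP6 overexpressed. Pairs of libraries within a group differed by a chi-square of 2.09 to 3.82 per gene and pairs across groups by 3.86 to 7.64, LARP6 itself left out. The labels do not state separate cultures within a group, so the p-values here reflect only how far these libraries differ, which can be a technical spread. Markers of the line (VIM, CD44, AXL and CAV1) summed to 5047 to 5141 CPM in the controls against 5252 to 5375 CPM with LARP6 overexpressed. VIM, the largest part, averaged 3151 and 3345 CPM (edgeR adjusted p = 0.0166), and CAV1 503 and 534 CPM (adjusted p = 0.0320). CD44 went the other way, at 761 and 724 CPM (adjusted p = 0.0672), and AXL overlapped between groups. Of 5 luminal or epithelial markers low in this line, which summed to 33.6 to 36.2 CPM in the controls and 32.7 to 33.3 CPM with LARP6, ESR1 and PGR averaged 0 and 0.149 CPM in the controls, while EPCAM, GATA3 and CDH1 averaged 15.3, 11.4 and 7.92 CPM. Markers of other cell types summed, over all 6 libraries, to 0.305 to 0.599 CPM for leukocytes, 4.95 to 7.28 CPM for endothelium (mostly PECAM1) and 2.22 to 4.0 CPM for hepatocytes or fibroblasts (mostly LUM), with control and LARP6 ranges that overlapped.

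Of the 40 tested members 6 were called, each with an estimated change of at most 22.2% in size. In the LARP6 libraries PMAIP1, BIRC3 and MCL1 rose and GDF15, BID and BAD fell, by edgeR's quasi-likelihood test with Benjamini-Hochberg adjustment over all 16226 genes tested. That is 3 of 40 tested members higher and 3 lower, against 2.43% of all tested genes called higher and 3.60% called lower. Highly expressed genes are called more often, and the share of genes called in either direction was 8.19% among 11072 genes averaging 5 CPM or more, where all 6 called members lie among 35 members (17.1%). The list was written with earlier results of these data known, so the member shares are descriptions and test nothing about the list. The median log2 fold change was -0.001 over the 40 members and 0.004 over all tested genes, and 33 of the 40 members lay within 0.15 of 0. Control and LARP6 libraries did not overlap in 10 members (25.0%), 6 higher and 4 lower, against 22.3% of all tested genes.

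Levels of the 41 members, compared between genes on the deposited FPKM scale (fragments scaled by gene length and library size), spanned several orders of magnitude. In both groups together 13 members averaged at least 10 FPKM, 21 lay between 1 and 10, and 7 were below 1 FPKM. BCL2L1, which encodes the survival protein BCL-xL, was the highest of the 41 at 131 ± 1.45 FPKM (SD, n = 3) in the controls. BCL2, its close relative, was at 0.513 ± 0.0404 FPKM (SD, n = 3), so that the ratio of BCL2L1 to BCL2 was 269, 264 and 236 in the control libraries and 239, 270.1 and 321 in the LARP6 libraries. BAD, BAK1, PMAIP1, BAX and CDKN1A followed at 70.6, 56.8, 51.6, 46.7 and 38.9 FPKM in the controls. The members below 1 FPKM were BCL2, BTG2, DIABLO, HRK, SESN1, TIGAR and ZMAT3. Summed FPKM of the pore-forming effectors was 104 ± 2.26 in the controls and 102 ± 2.33 with LARP6 (SD, n = 3 each), and that of the survival genes 169 ± 1.68 and 171 ± 3.27, with overlapping libraries in both. The BH3-only sum was 142 ± 2.56 in the controls and 146 ± 1.84 with LARP6, without overlap, and was made up mostly of BAD and PMAIP1. The sums were also higher in every LARP6 library for caspases and apoptosome (23.5 ± 0.370 and 25.0 ± 0.900), for caspase inhibitors and their antagonist (24.4 ± 0.917 and 26.3 ± 0.595) and for AEN with ZMAT3 (4.27 ± 0.131 and 4.64 ± 0.0751). The sums of the other 4 role groups overlapped, and none of these sums was tested. FPKM lack the scaling between libraries that the CPM here include beyond library size. With library size only, the median log2 fold change of the members was 0.025, against -0.001 in the reported fit. Whether the sums stay apart with the CPM scaling was not tested, so the separations hold for the FPKM scale only. By gene, in the reported fit with that scaling, 2 of 7 tested BH3-only genes had positive log2 fold changes and 5 negative. For caspases and apoptosome 3 were positive and 1 negative, and for caspase inhibitors and their antagonist 3 and 2. AEN and ZMAT3 were both positive.

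**Figure D1:**
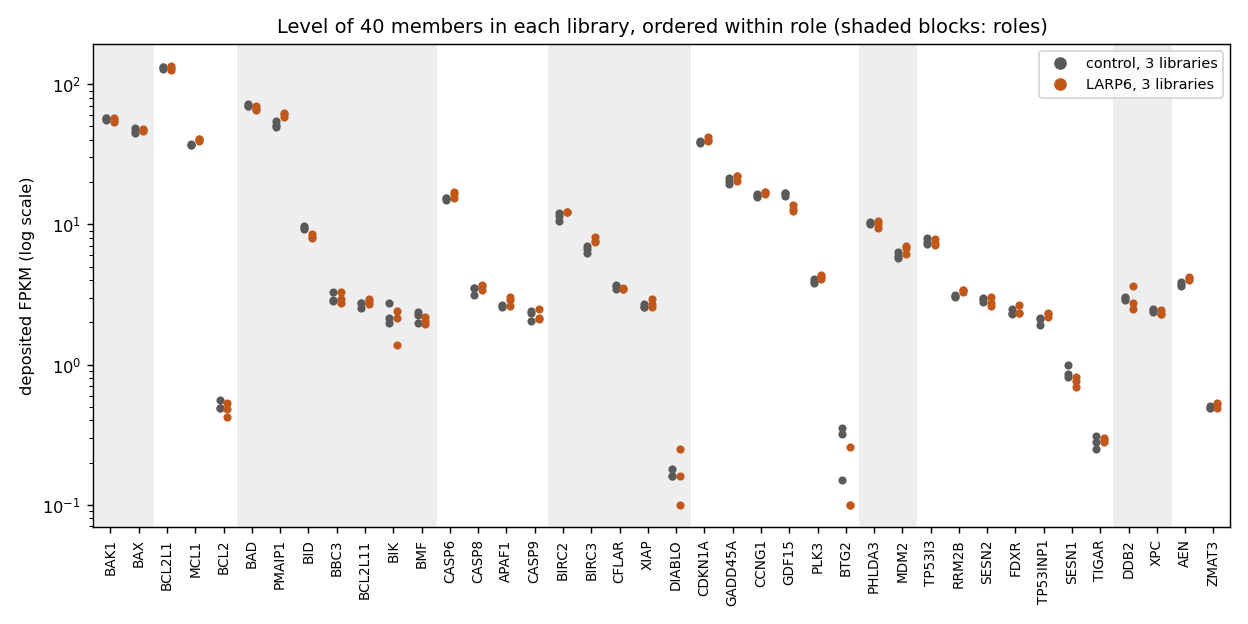
Deposited FPKM (log axis) of 40 members in each control library (grey) and LARP6 library (orange), grouped by role in shaded blocks and ordered by level within each; HRK, listed at 0 in some libraries, is left out. BCL2L1 stands highest near 131 FPKM and the groups nearly coincide for most genes.

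PMAIP1 (ENSG00000141682.12, chr18:59899948-59904306, plus strand, GRCh38) encodes NOXA, a BH3-only protein that binds and neutralises MCL1. It stood at 127, 136 and 124 CPM in control libraries 1 to 3 and at 153, 149.8 and 144 CPM in LARP6 libraries 1 to 3. Every LARP6 library was above every control library. The change was 0.21 ± 0.03 (log2, SE), or 15.4% with a 95% interval of 10.4% to 20.7% (edgeR adjusted p = 9.07e-07). The call held in 19 of 20 alternative analyses and was lost on unfiltered FPKM, where only 3 genes in all were called.

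BIRC3 (ENSG00000023445.16, chr11:102317450-102339403, plus strand) encodes cIAP2, an inhibitor of apoptosis protein that acts as a ubiquitin ligase at tumour necrosis factor receptors and is a textbook NF-kB target. Its levels were 60.3, 57.3 and 54.1 CPM in the controls against 64.3, 68.7 and 63.6 CPM with LARP6 overexpressed, again without overlap. It rose by 0.20 ± 0.04 (log2, SE), or 14.5% (edgeR adjusted p = 0.000795). With offsets for transcript GC content and length the change was 0.10 ± 0.04 and was not called (adjusted p = 0.179). BIRC2, its neighbour on chromosome 11 that encodes cIAP1, was at 58.6, 62.6 and 55.4 CPM in the controls against 62.2, 62.2 and 61.9 CPM with LARP6 overexpressed. Those groups overlapped, and BIRC2 was not called (0.08 ± 0.04, log2, SE, edgeR adjusted p = 0.312).

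GDF15 (ENSG00000130513.6, chr19:18374731-18389176, plus strand) encodes a secreted stress cytokine of the TGF-beta superfamily that p53 and the integrated stress response can both induce. It showed the largest change among the called members, from 39.6, 40.0 and 38.1 CPM in the controls to 30.1, 29.4 and 32.0 CPM in the LARP6 libraries. The highest LARP6 library lay well under the lowest control. The log2 fold change was -0.36 ± 0.05 (SE), a change of -22.2% with a 95% interval of -27.7% to -16.3% (edgeR adjusted p = 1.13e-07), and it was called in 19 of 20 alternatives.

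Sequence before the starts of these 3 genes is shown because they had the smallest p-values among members with a single RefSeq start. The stretches are from RefSeq windows on GRCh38.p14, 5′ to 3′ on the plus strand, at chr18:59899746-59899947 for PMAIP1, chr11:102317234-102317450 for BIRC3 and chr19:18385982-18386011 for GDF15. For PMAIP1 and BIRC3 they run from 250 bases before the start to about the first exon of GENCODE v29. For GDF15, where that annotation places an exon over nearly the whole window, a match with 10 bases on each side is given. Capitals mark matches on either strand to the NF-kB consensus or to TGACG, the core of the cyclic AMP response element.
PMAIP1: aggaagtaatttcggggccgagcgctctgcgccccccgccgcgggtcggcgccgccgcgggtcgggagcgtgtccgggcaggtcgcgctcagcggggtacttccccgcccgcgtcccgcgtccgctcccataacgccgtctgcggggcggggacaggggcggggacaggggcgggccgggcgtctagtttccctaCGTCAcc
BIRC3: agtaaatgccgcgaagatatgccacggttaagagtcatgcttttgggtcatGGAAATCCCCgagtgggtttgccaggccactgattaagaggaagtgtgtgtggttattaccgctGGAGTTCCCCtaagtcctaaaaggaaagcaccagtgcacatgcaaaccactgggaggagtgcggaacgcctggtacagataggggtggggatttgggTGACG
GDF15: agctttactaGGAGCGCCCCcacctaaaga
BIRC3 held 2 NF-kB matches, from -199 to -190 and from -135 to -126 counted from the start at +1, and a TGACG match from -38 to -34. PMAIP1 held a TGACG match on the reverse strand from -55 to -51, and GDF15 an NF-kB match from -166 to -157. Over windows from 250 bases before to 50 after each RefSeq start, 13.3% of 27305 genes and 8 of 35 members with a window held an NF-kB match, and 28.4% of genes and 17 of 35 members held TGACG. The full element TGACGTCA, which contains TGACG on both strands, occurred in 2.25% of genes and, among members, in BIRC2 only. These matches describe letters and do not show binding.

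BH3-only genes went in both directions, with 1 of 7 tested members higher and 2 lower. BID, which caspase-8 cleaves to carry death receptor signals to mitochondria, lies at chr22:17734138-17774770 on the minus strand (ENSG00000015475.19). It fell from 49.0, 46.6 and 47.8 CPM in the controls to 39.5, 40.1 and 42.6 CPM in the LARP6 libraries. No LARP6 library reached the lowest control. The change was -0.23 ± 0.05 (log2, SE), or -14.8% (edgeR adjusted p = 0.000422), and it kept its call with GC and length offsets (-0.22 ± 0.05, adjusted p = 0.000550).

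BAD, which binds BCL2L1 and is switched off by phosphorylation, lies at chr11:64269830-64284704 on the minus strand (ENSG00000002330.14) and had the highest FPKM of the BH3-only genes. It was at 141, 136 and 137 CPM in the controls against 125, 127 and 135 CPM with LARP6 overexpressed, with LARP6 library 3 just under the lowest control. Its call (-0.10 ± 0.03, log2, SE, edgeR adjusted p = 0.0491) held in only 5 of 20 alternatives. It was lost without control library 1, 2 or 3 or LARP6 library 1 or 2, with library size only (-0.07, adjusted p = 0.178) and with GC and length offsets (-0.02, adjusted p = 0.809).

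The other BH3-only genes were not called. BCL2L11 encodes BIM and BBC3 encodes PUMA, both strong activators of pore formation. They averaged 20.4 and 11.0 CPM in the controls against 21.1 and 10.8 CPM with LARP6 overexpressed. BMF, which senses loss of attachment, averaged 13.8 and 12.6 CPM, and BIK 2.50 and 2.11 CPM, with overlapping libraries for all 4 genes. HRK was not tested, with 3, 1 and 3 counts in the controls and 0, 2 and 1 counts in the LARP6 libraries.

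Among survival genes MCL1 (ENSG00000143384.14, chr1:150574551-150579738, minus strand), which encodes a short-lived protein that sequesters BAK1 and NOXA, was at 267, 263 and 263 CPM in the controls against 285, 285 and 274 CPM with LARP6 overexpressed. The groups did not overlap, and the change was 0.09 ± 0.03 (log2, SE), or 6.30% (edgeR adjusted p = 0.0378). The call held in 8 of 20 alternatives. It was lost without control library 1, 2 or 3 or LARP6 library 1 or 2, and with GC and length offsets (0.05 ± 0.02, adjusted p = 0.261). BCL2L1 was at 629, 621 and 635 CPM in the controls against 598, 611 and 634 CPM with LARP6 overexpressed. Its groups overlapped, and its 95% interval allowed a change from -5.66% to 1.25% (edgeR adjusted p = 0.528). BCL2 averaged 7.45 and 6.79 CPM and was not called.

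Pore-forming effectors were not called, and their intervals were narrow. BAK1 was at 143, 141 and 147 CPM in the controls against 134, 138 and 141 CPM with LARP6 overexpressed, which met at 141 (-0.06 ± 0.03, log2, SE, edgeR adjusted p = 0.271). BAX averaged 138 ± 4.20 CPM in the controls against 137 ± 2.14 CPM with LARP6 overexpressed (SD, n = 3 each), with a 95% interval of -5.25% to 3.48% for the change.

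**Figure D2:**
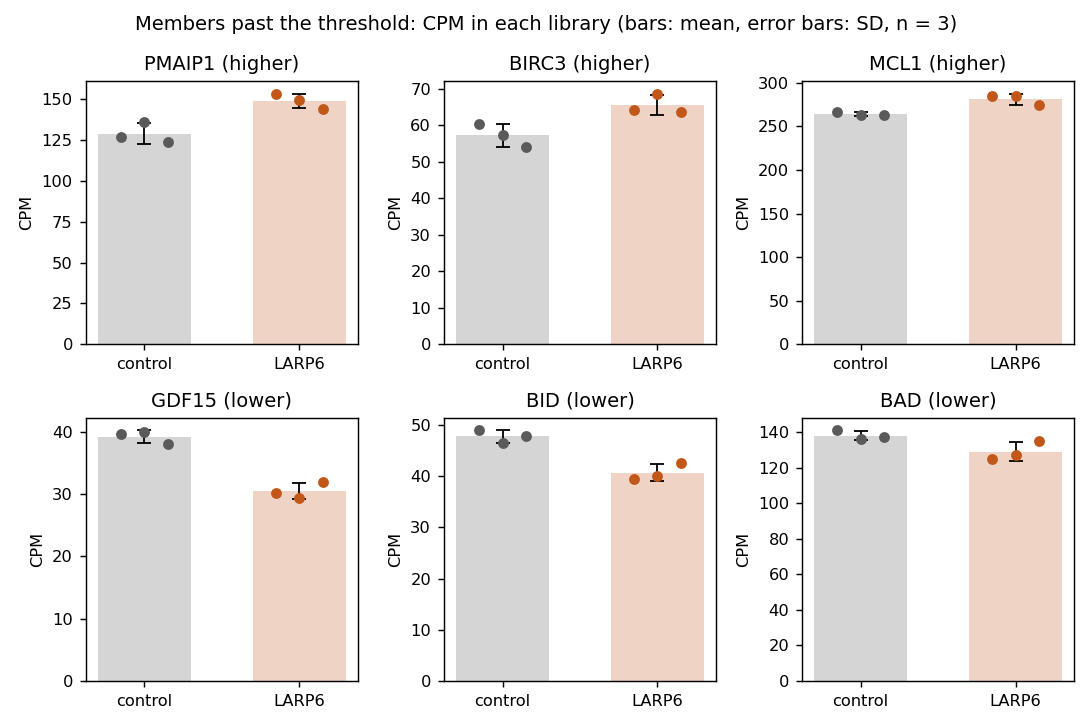
CPM in each library for the 6 members past the threshold, with bars at the group mean, error bars at the SD (n = 3) and axes from 0. PMAIP1, BIRC3 and MCL1 are higher and GDF15, BID and BAD lower in every LARP6 library than in every control library, and GDF15 has the largest change (-22.2%).

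Caspases and the apoptosome gave 0 of 4 tested members called by edgeR, with 0 of the 4 at an unadjusted p under 0.05. CASP6, an executioner caspase and the highest of these by FPKM, was at 33.7, 34.1 and 33.4 CPM in the controls against 37.4, 35.9 and 33.9 CPM with LARP6 overexpressed. LARP6 library 3 lay within the control range. APAF1, CASP8 and CASP9 had log2 fold changes of 0.10, 0.05 and -0.03, and each one's 95% interval included 0.

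Among the caspase inhibitors and their antagonist, BIRC3 was the 1 of 5 tested members called. XIAP, which binds caspases directly, averaged 26.9 and 27.8 CPM. CFLAR encodes FLIP, which blocks caspase-8, and was at 88.4, 92.8 and 96.1 CPM in the controls against 89.1, 87.6 and 87.2 CPM with LARP6 overexpressed. It was not called (-0.07 ± 0.04, log2, SE, edgeR adjusted p = 0.267), but with GC and length offsets it was called lower (-0.16 ± 0.03, adjusted p = 0.00170).

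Several members share exons with another gene, and whether reads were counted by strand is not given in the sources used here. In the table, the row named DIABLO, for the mitochondrial protein that displaces inhibitors from caspases, held only 44, 37 and 43 counts in the controls and 37, 59 and 24 in the LARP6 libraries. GENCODE v29 gives the name DIABLO also to an overlapping gene on the same strand (ENSG00000284934.2, another symbol in the table), which held 2325 to 2673 counts per library. That gene was at 80.8 ± 0.989 CPM in the controls against 78.4 ± 1.72 CPM with LARP6 overexpressed (SD, n = 3 each) and was not called (edgeR adjusted p = 0.587). TIGAR likewise shares 42.6% of its exon bases with a longer gene on its strand, which averaged 15.1 CPM in the controls against 3.05 CPM for TIGAR. On opposite strands, 43.0% of BCL2L1's exon bases are shared with the antisense gene ABALON and 23.7% of BAD's with GPR137. ABALON averaged 443.3 counts against 19152.5 for BCL2L1, and GPR137 2199.2 against 4108.2 for BAD. Other partners had more counts than the member. They were MIR4435-2HG for BCL2L11 (5427.7 against 640.3 counts) and LSM3 for XPC (3771.2 against 387.3). MCUB for CASP6 (1692.0 against 1068.8) and B3GNT4 for DIABLO (200.3 against 40.7) did too. For counts without strand such pairs could not be told apart.

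Of the 19 members grouped as p53 targets, GDF15 fell and 18 were not called. The 22 apoptosis members, 3 of them called higher, are counted separately, although p53 also raises several of those genes. CDKN1A encodes p21, the cyclin-dependent kinase inhibitor through which p53 arrests the cell cycle. It was at 130.2, 133 and 136 CPM in the controls against 133, 134 and 142 CPM with LARP6 overexpressed. The groups overlapped, and the 95% interval allowed a change from -2.08% to 7.05% (edgeR adjusted p = 0.629).

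The other arrest and stress genes were not called. GADD45A, which acts in damage-induced arrest, averaged 45.0 and 46.5 CPM, the stress kinase gene PLK3 15.0 and 15.7 CPM, and cyclin G1 (CCNG1) 56.8 and 58.5 CPM. BTG2, an antiproliferative cofactor of mRNA deadenylation, had few reads, with 31, 14 and 36 counts in the controls and 24, 9 and 10 in the LARP6 libraries. Its log2 fold change of -0.89 ± 0.35 (SE) was the largest in size among the members and was not called (edgeR adjusted p = 0.121). Without LARP6 library 1 it was -1.50 and called lower (adjusted p = 0.0314).

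MDM2, the ubiquitin ligase for p53 and itself a p53 target, was at 59.6, 56.7 and 55.0 CPM in the controls against 65.7, 62.7 and 56.9 CPM with LARP6 overexpressed. LARP6 library 3 lay inside the control range, and the gene was not called (0.11 ± 0.04, log2, SE, edgeR adjusted p = 0.114). Without that library it was called higher at 0.17 (adjusted p = 0.0138). PHLDA3, a p53-induced inhibitor of AKT, was at 38.3, 37.6 and 37.9 CPM in the controls against 37.0, 34.2 and 38.3 CPM with LARP6 overexpressed, with overlap.

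Metabolic and redox targets gave 0 of 7 tested members called by edgeR, with SESN1 the 1 member at an unadjusted p under 0.05. The sestrin gene SESN1 was lower in every LARP6 library (4.66, 3.94 and 4.38 CPM) than in the controls (5.84, 4.74 and 5.06 CPM), at an adjusted p of 0.245 by edgeR. SESN2, another sestrin gene, averaged 11.5 and 10.9 CPM. RRM2B, which supplies deoxynucleotides for repair, and TP53INP1, a cofactor of p53 in stress, were higher in each LARP6 library than in any control, at 0.12 ± 0.07 and 0.12 ± 0.08 (log2, SE), and were not called. TP53I3, a quinone oxidoreductase gene and the highest of these by FPKM, was at 19.1, 21.2 and 19.7 CPM in the controls against 18.7, 20.4 and 19.2 CPM with LARP6 overexpressed. The ferredoxin reductase gene FDXR averaged 9.74 and 9.91 CPM.

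DDB2 and XPC recognise damage in nucleotide excision repair, and neither was called. DDB2 was even in the controls (16.5, 16.1 and 16.9 CPM) but spread widely in the LARP6 libraries (13.6, 14.8 and 19.6 CPM), with library 3 above and libraries 1 and 2 below all controls. XPC averaged 12.9 and 12.2 CPM. Of the remaining targets, the nuclease gene AEN was at 26.5, 25.0 and 25.8 CPM in the controls against 27.9, 27.0 and 28.1 CPM with LARP6 overexpressed. It did not overlap between groups and was not called (0.10 ± 0.06, log2, SE, edgeR adjusted p = 0.353), and ZMAT3, an RNA-binding zinc finger gene, averaged 6.42 and 6.52 CPM.

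**Figure D3:**
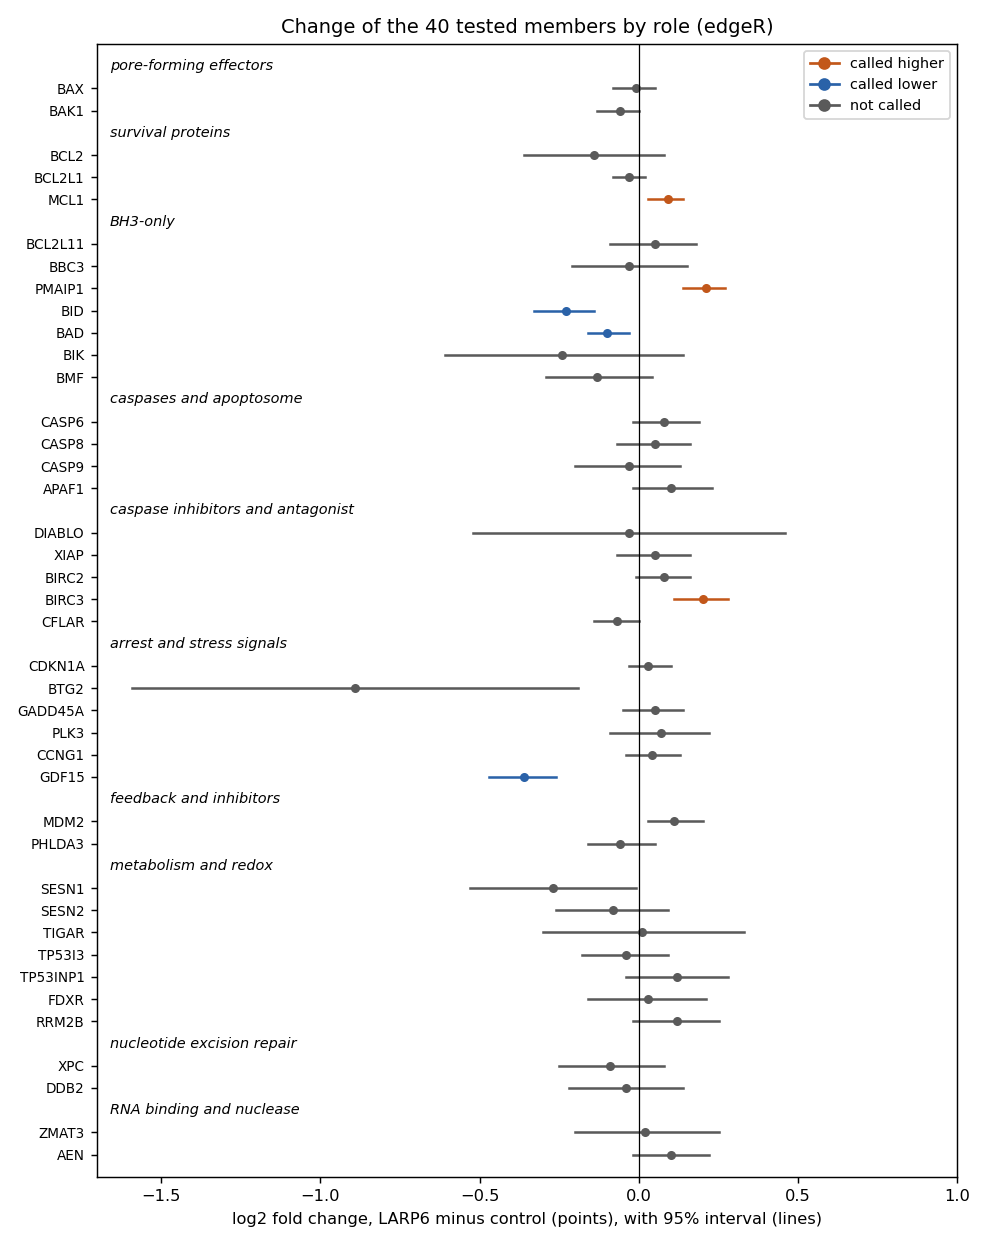
Log2 fold change (points) with 95% interval (lines) for the 40 tested members by role, with called members in orange (higher) and blue (lower). Most points lie within 0.15 of 0, while BTG2 at -0.89 has the widest interval.

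Sequence matches to the p53 half-site consensus, searched on both strands of the same 300-base windows, were found in 7 of 35 members and in 8.06% of 27305 genes. They are shown because they mark which of these genes carry a near-start match. Positions are relative to the start (+1) of the window that held the match, which may be 1 of several. CASP8 and SESN1 had 3 windows each, DDB2, CASP9 and FDXR 2, and BAK1 and AEN 1. The 35 members had 63 windows, and a gene with more windows has more room for a match. All 7 genes were among those not called, as were 34 of the 40 tested members.
DDB2 (6 to 26): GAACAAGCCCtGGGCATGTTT
CASP8 (-121 to -112): AAGCATGTCC
BAK1 (-73 to -64): GGACATGCTC
SESN1 (-49 to -40): GGACAAGTCT
CASP9 (-188 to -179): AGGCTAGCCC
AEN (-34 to -25): GGGCTTGCCC
FDXR (-11 to -2): GGGCTTGCCC
DDB2, at chr11:47214979-47214999 on the plus strand of GRCh38.p14, held 2 half-sites (capitals) with 1 base between them, and the others held a single half-site. AEN and FDXR carried the same 10 letters. CDKN1A, MDM2 and BBC3 had no match in this window, which says only that these letters are not there, and 6 members had no window.

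GC content of the transcripts moved with the changes. Over 16055 tested genes with a value, Spearman's rho between GC content of the longest transcript and log2 fold change was -0.33, and over the 40 members it was -0.55. All genes share the same 6 libraries, so these are descriptions only. The called members that rose had a GC content of 34.8% (BIRC3), 37.2% (PMAIP1) and 45.1% (MCL1), and those that fell 49.7% (BID), 62.9% (GDF15) and 66.3% (BAD), against a median of 48.6% over all tested genes. With offsets for GC content and length, PMAIP1 (0.16 ± 0.03, log2, SE, edgeR adjusted p = 5.75e-05), GDF15 (-0.28 ± 0.05, adjusted p = 4.80e-05) and BID kept their calls. MCL1, BIRC3 and BAD lost theirs.

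**Figure D4:**
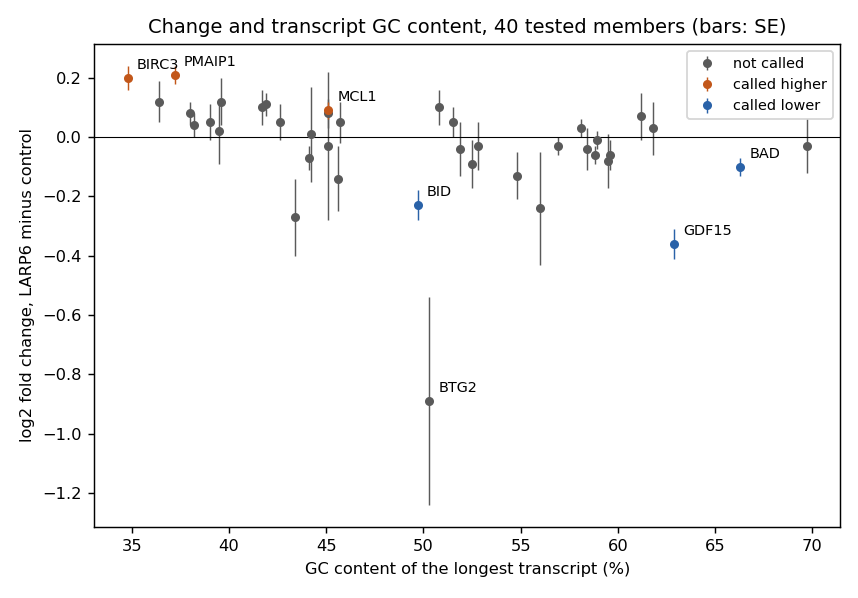
Log2 fold change against GC content of the longest transcript for the 40 tested members, with bars at the SE. Called higher members (orange) lie at 34.8% to 45.1% GC and called lower members (blue) at 49.7% to 66.3%.

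Related genes outside the 41 were read from 6 lists, of which 61 genes were tested, 1 rose and 3 fell. Over all tested genes edgeR called 2.43% higher and 3.60% lower. An unadjusted p under 0.05 was reached by 14 of the 61 and by 3085 of all 16226 genes. None of 11 genes of the death receptor arm was called by edgeR, with 2 at an unadjusted p under 0.05. In it TNFSF10, which encodes the ligand TRAIL, had the smallest p (-0.10 ± 0.03, log2, SE, adjusted p = 0.0564). TNFSF10 was called lower with upper-quartile scaling (adjusted p = 0.0499), with GC and length offsets (-0.13, adjusted p = 0.00578), without control library 3 (adjusted p = 0.0335) and without LARP6 library 3 (adjusted p = 0.0212). Of 10 execution and mitochondrial release genes 1 fell, ENDOG, a mitochondrial nuclease gene, from 29.9 ± 0.471 to 25.0 ± 1.02 CPM (SD, n = 3 each; -0.26 ± 0.06, log2, SE, edgeR adjusted p = 0.00191). With GC and length offsets ENDOG was no longer called (-0.18, adjusted p = 0.0571).

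Neither the 6 tested genes of the wider BCL2 family nor the 4 of a list of BIRC5, BIRC6, ARIH1 and HUWE1 were called by edgeR. Each list had 1 gene at an unadjusted p under 0.05. BOK, a BAX relative, had the smallest p of the first (-0.11 ± 0.04, log2, SE, adjusted p = 0.103) and BIRC6 of the second (0.16 ± 0.06, adjusted p = 0.128). Among the regulators of p53, the damage kinase gene ATM rose from 18.1 ± 1.37 to 22.1 ± 1.66 CPM (SD, n = 3 each; 0.29 ± 0.07, log2, SE, edgeR adjusted p = 0.00304). Its call was lost without LARP6 library 2 (0.23, adjusted p = 0.103) and with GC and length offsets (0.19, adjusted p = 0.106). Among 19 further p53 targets, NINJ1, which encodes a protein that ruptures the membrane of dying cells, fell by 0.23 (log2, SE 0.05, edgeR adjusted p = 0.000758) and 18 were not called. With library size only, 2 of the 19 were called higher, and without control library 1 or LARP6 library 3, 2 were called lower.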

How the data were processed

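Messenger RNA of 3 control and 3 LARP6 libraries was read in pairs of 150 bases after a strand-keeping kit, per the labels' protocols. The authors deposited whole-number read counts per gene and FPKM values, which scale counts by gene length and library size. The submitters' processing notes name HISAT2, DESeq2 and GRCh38. Not given in the sources used here are the read counter, its use of strand and the gene annotation.

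The test was edgeR's robust quasi-likelihood test (edgeR 4.0.16, R 4.3.3) on the deposited counts, with its expression filter, TMM scaling and no covariate. A gene was called at an adjusted p (Benjamini-Hochberg, 16226 genes) below 0.05. Levels in CPM use the TMM-scaled library sizes. FPKM served to compare genes. Alternatives used DESeq2 1.42.0, limma 3.58.1, other scalings, filters and pseudocounts, a replicate block, GC and length offsets, and each library left out. In simulated counts for this comparison (16226 genes), 150 genes above 1 CPM were changed at each of 1.1, 1.2, 1.3 and 2.0-fold over all draws. The other genes were left unchanged. There edgeR recovered 15.3% of the genes set to change 1.1-fold, and 78.7% of those set to change 1.3-fold. Of edgeR's calls 7.46% were false, and of DESeq2's 1.42%. These rates belong to that setting, since real changes may differ in number and size.

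All 41 genes are accounted for: library values are given for called members and for the highest by FPKM in each role, and from each related list up to 3 called genes per direction, or the gene with the smallest p. The members and lists were chosen with earlier results of these data known. Coordinates, exon overlaps, GC content and length came from GENCODE v29 (97.0% of identifiers matched), and promoter windows from RefSeq on GRCh38.p14 (35 of 41 members). The result of 1 gene of the related lists is not reported here.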

Additional observations from a re-analysis of the deposited data

How the results depend on the processing

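Over 20 alternatives, the 6 called members kept their direction in every one. PMAIP1 and GDF15 kept their calls in 19, BID in 17, BIRC3 in 16, MCL1 in 8 and BAD in 5. Members higher (3) became 1 with GC and length offsets or on log2(FPKM + 1) or log2(FPKM + 0.1), and 0 on unfiltered FPKM. Members lower (3) became 1, 1 and 0 on the same FPKM scales. Calls over all genes fell in these fits too, from 979 to 601 with the offsets. They were 156 on log2(FPKM + 1), 157 on log2(FPKM + 0.1) and 3 on unfiltered FPKM, and 456 to 1040 with a library left out. With each library left out, members higher ran from 2 to 4 and members lower from 2 to 3. Within these, apoptosis members higher (3) were 1 with the offsets and 1, 1 and 0 on the FPKM scales, and 2 to 3 with a library left out. Apoptosis members lower (2) were 1 with RLE scaling, library size only, no low-count filter, DESeq2, limma-voom or an adjusted p below 0.01, and 0 on the 3 FPKM scales. With a library left out they were 1 to 2, with 1 in the fits without control library 1, 2 or 3 and without LARP6 library 1 or 2. For p53 targets, members higher (0) ran from 0 to 1, with MDM2 called without LARP6 library 3, and members lower (1) ran from 1 to 2, with BTG2 added without LARP6 library 1, and were 0 on unfiltered FPKM.

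Whether the replicate numbers pair the libraries was not settled. Same-numbered deviations correlated at 0.077, 0.042 and 0.209, and deviations with unlike numbers at -0.131 to 0.069. LARP6 library 2 correlated more with control library 1 (0.059) than with control library 2. The replicate block called the same 6 members (3 higher and 3 lower), and 1345 genes in all against 979. With it the related genes were 2 higher and 6 lower, against 1 and 3, with TNFSF10 called lower (adjusted p = 0.0287) and 1 of the further p53 targets higher and 3 lower. Related genes higher were also 3 with library size only, 2 with CPM above 1 in 3 libraries, 0 with GC and length offsets and 0 on the 3 FPKM scales, and 0 to 1 with a library left out (0 without LARP6 library 2). Related genes lower were 0 on unfiltered FPKM, and 2 to 5 with a library left out (5 without LARP6 library 3).

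Over all genes, scaling by library size only gave 687 higher and 303 lower against 395 and 584, with 3 members higher and 2 lower. Signs turned in 28 of 787 values, for 13 members of which 0 were called. With GC and length offsets they were 0.06 (BAX), 0.01 (BCL2L1), 0.03 (BBC3), 0.02 (TP53I3), -0.04 (XIAP), -0.01 (CCNG1), -0.02 (TIGAR) and -0.06 (ZMAT3). BAX was 0.01 with library size only and on the 3 FPKM scales, and DIABLO 0.00 on unfiltered FPKM. With a library left out, BAX ran from -0.04 to 0.01, BBC3 from -0.10 to 0.05, CASP8 from -0.00 to 0.08, CASP9 from -0.11 to 0.02, DIABLO from -0.43 to 0.25, XIAP from -0.01 to 0.09, TIGAR from -0.05 to 0.08, FDXR from -0.04 to 0.06 and DDB2 from -0.21 to 0.06. The cause of these turns was not tested. Intervals cover the spread of 3 libraries per group, and a member not called may have changed by as much as its interval allows.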
